A study of Rattus norvegicus with 145 samples.

Results

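The genes that make fatty acids in the rat liver were followed across doses of acetamide. The set was listed by gene symbol, with earlier results of these data known. It has 10 names: Acly, Me1, Acaca, Acacb, Fasn, Elovl6, Scd, Scd1, Srebf1 and Thrsp. Of these, 9 have an entry among the 17337 genes of the count tables. The symbol Scd has no entry of its own, and RefSeq gives Scd1 as another name of Scd, so Scd1 stands for that desaturase here. The 8 genes other than Elovl6 passed the filter on low counts in every data set and were tested.

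Liver RNA was sequenced from Wistar rats in 5 data sets, of 25 rats in experiment A and 30 in each of the other 4, with 5 rats in every group. In experiment A, male Hsd:WI rats aged 9 to 10 weeks were gavaged daily for 7 days with acetamide at 0, 30, 100, 300 and 1000 mg/kg body weight per day (written mkd) and were sampled on day 8. In experiment B, male and female Crl:WI rats aged 8 to 10 weeks were given 0, 300, 500, 750, 1000 or 1500 mkd for 7 or 28 days and were sampled on day 8 or day 29. All control groups were gavaged with water, the vehicle of the treated groups. For the day 29 control males the experiment label named experiment A, and their title and stock placed them in experiment B. The left lobe was taken from every rat. The study's methods state an overnight fast for experiment A and refer to the same collection for experiment B, 24 h after the last dose. Rats of experiment B were killed in a randomized order. Each dose group was set against the control of its own data set, so all doses of a data set share the same 5 control rats.

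Fatty acid synthesis in the liver turns surplus carbohydrate into fat. Acly cleaves citrate in the cytosol to give acetyl-CoA, and Me1 supplies NADPH by oxidizing malate. Acetyl-CoA carboxylase makes malonyl-CoA, by Acaca in the cytosol for synthesis and by Acacb at the mitochondrial outer membrane, where malonyl-CoA restrains the entry of fatty acids for oxidation. Fasn builds palmitate from malonyl-CoA and NADPH, Elovl6 lengthens palmitate to stearate, and Scd1 puts the first double bond into both. Srebf1 encodes SREBP-1, the transcription factor that insulin and feeding use to switch these enzymes on, and Thrsp, also called Spot 14, is a small protein that follows thyroid hormone and carbohydrate and promotes lipogenesis. Transcripts of the pathway are low in a fasted liver and rise on refeeding.

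The start regions of Acly, Scd, Srebf1 and Thrsp are shown because transcription of these genes responds to the same nutritional signals, and their RNA is compared across doses here. Each sequence runs 5′ to 3′ from 250 bases before an annotated start to 50 bases after it, as given by RefSeq for the assembly GRCr8, on the minus strand. Capitals mark CCAAT boxes (CCAAT) and GC boxes (GGGCGG), each read on both strands, so that ATTGG and CCGCCC are the same motifs on the other strand. Srebf1 has 2 annotated starts in the table.
Acly chr10:85963582-85963881: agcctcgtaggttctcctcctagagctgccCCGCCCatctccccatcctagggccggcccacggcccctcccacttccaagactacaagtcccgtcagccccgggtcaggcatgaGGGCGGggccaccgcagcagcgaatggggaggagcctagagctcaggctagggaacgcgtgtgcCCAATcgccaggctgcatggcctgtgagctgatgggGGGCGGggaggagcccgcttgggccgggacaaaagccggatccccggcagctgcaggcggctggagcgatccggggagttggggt
Scd chr1:253231682-253231981: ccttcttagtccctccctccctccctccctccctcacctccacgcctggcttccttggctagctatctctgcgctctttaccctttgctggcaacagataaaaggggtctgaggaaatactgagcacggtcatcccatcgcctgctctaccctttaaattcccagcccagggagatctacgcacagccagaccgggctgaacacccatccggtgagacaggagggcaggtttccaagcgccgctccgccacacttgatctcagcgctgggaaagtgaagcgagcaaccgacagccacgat
Srebf1 first start chr10:45529115-45529414: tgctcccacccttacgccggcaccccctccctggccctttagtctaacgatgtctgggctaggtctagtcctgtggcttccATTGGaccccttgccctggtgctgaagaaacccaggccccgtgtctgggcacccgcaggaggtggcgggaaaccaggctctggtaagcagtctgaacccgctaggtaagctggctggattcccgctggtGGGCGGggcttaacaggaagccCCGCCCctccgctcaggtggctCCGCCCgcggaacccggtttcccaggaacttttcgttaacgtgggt
Srebf1 second start chr10:45518961-45519260: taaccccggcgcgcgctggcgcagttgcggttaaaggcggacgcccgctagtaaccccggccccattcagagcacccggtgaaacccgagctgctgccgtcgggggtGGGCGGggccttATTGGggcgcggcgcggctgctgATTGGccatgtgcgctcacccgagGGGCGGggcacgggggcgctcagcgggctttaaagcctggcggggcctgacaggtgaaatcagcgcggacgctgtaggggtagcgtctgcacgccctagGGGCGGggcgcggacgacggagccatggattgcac
Thrsp chr1:161138915-161139214: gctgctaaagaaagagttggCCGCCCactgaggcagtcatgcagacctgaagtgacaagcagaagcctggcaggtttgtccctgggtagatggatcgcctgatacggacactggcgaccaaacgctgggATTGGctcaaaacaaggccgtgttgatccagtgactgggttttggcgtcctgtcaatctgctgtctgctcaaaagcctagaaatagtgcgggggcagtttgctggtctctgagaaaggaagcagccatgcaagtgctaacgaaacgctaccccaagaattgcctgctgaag

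Of the 10 names, 6 matched this table, with 7 windows in all, those of Acacb and Me1 included. A CCAAT box was found in 5 of the 7 windows, against 37.5% of all 33469 windows of the rat table. A GC box was also found in 5 of the 7, against 33.1% of all windows. The Scd window held neither. The sterol regulatory element TCACNCCAC was in none of the 7 windows and in 1.12% of all windows, and the E-box CACGTG was in none of the 7 and in 6.42% of all. A match describes the letters of a window and is not a measured binding site. The count files were made on the older build Rn6, so these positions are not those of the files.

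The reads on genes numbered 15449716 to 39986531 in a rat. Levels are given as CPM, gene counts scaled to a common library size by the TMM method of edgeR, and levels of different genes are not compared because transcript lengths were not used. A gene was called changed where it differed at least 1.5-fold in either direction and its adjusted p in edgeR, by the Benjamini-Hochberg method over all genes tested, did not exceed 0.05. All 10 hepatocyte markers were detected in every data set. Of 8 adipocyte markers, 4 were near 0, with at most 6 counts of Adipoq, 1 of Lep, 2 of Plin1 and 2 of Retn in any rat. The other 4 were detected, with up to 2407 counts of Fabp4, 1213 of Cfd, 903 of Lipe and 360 of Pparg, and Fabp4 rose at 1000 mkd in experiment A (log2 difference 1.30, adjusted p = 0.047). The summed level of the 8 was 26.0 to 40.3 CPM in the controls of experiment A and 29.5 to 58.4 CPM at 1000 mkd. At 1000 mkd in experiment A, 4 of 10 hepatocyte markers fell, with a summed level of 86474 to 265138 CPM against 269784 to 358308 CPM in the controls. There, 7 of 10 macrophage markers, 7 of 7 tested T and NK cell markers, 3 of 6 endothelial markers, 1 of 7 tested stellate cell markers and 9 of 10 cell cycle genes rose, 2 of 3 tested erythroid markers fell, and 0 of 4 cholangiocyte markers were called. Of all genes tested, 7.45% fell and 14% rose in this comparison, so the 1 of 7 stellate cell markers is a share near that of all genes. The summed level of the macrophage markers was 556 to 1626 CPM in the controls and 1329 to 2426 CPM at 1000 mkd, and that of the T and NK cell markers 23.4 to 29.7 CPM and 40.9 to 74.7 CPM. Cd4 alone had a mean of 20.5 CPM in the controls and 36.0 CPM at 1000 mkd, so the T and NK cell sum mostly follows this gene. The part of these cell type markers in the results below was not tested. In bulk liver RNA, fewer cells of a type and less RNA per cell cannot be told apart.

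Some single rats stood far above the rest of their group, and they touch several results. Control replicate 3 of the day 29 females had 1494 CPM of Fasn, where the other 4 control rats had 54.7 to 193 CPM, and 1049.8 CPM of Acly, where the others had 109 to 150.3 CPM. The female given 300 mkd for 7 days as replicate 2 had 1473 CPM of Fasn against 52.5 to 367 CPM in its group. Control replicate 3 of experiment A had the highest Fasn, Acaca and Acly of its group.

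Elovl6 was close to absent from the counts. It was at 0 in 133 rats, at 1 count in 11 rats and at 2 counts in 1 rat, and was not tested. A floor of 3 counts was not reached in any rat, so no dose response of the elongase could be measured. The gene is known to be expressed in liver, and whether the gene model used for counting misses its transcript was not tested, so these counts are not read as its absence.

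**Figure D1:**
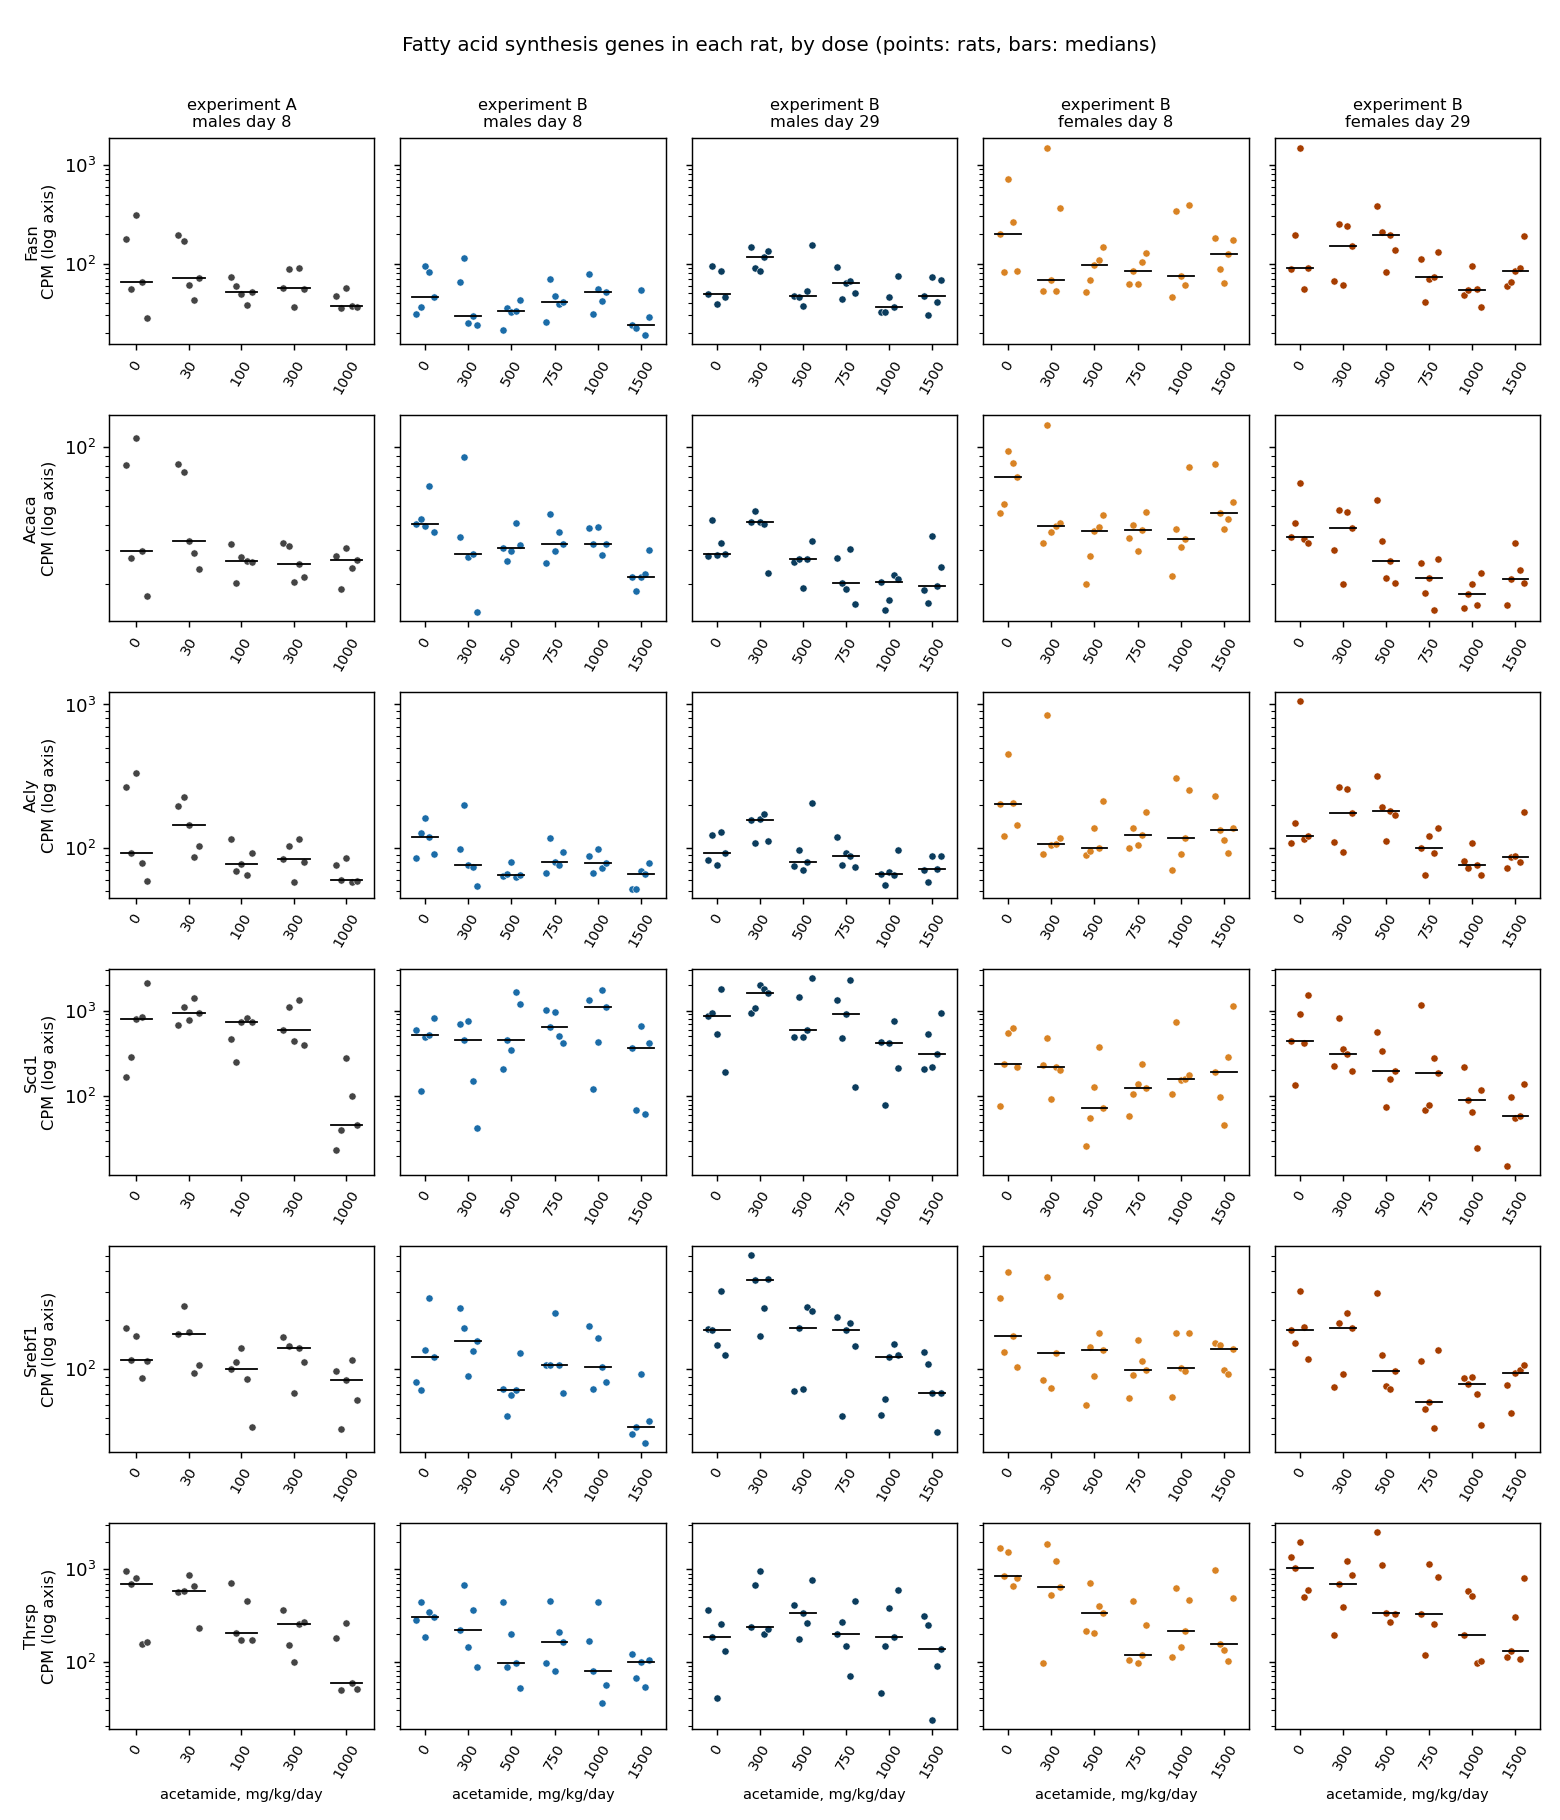
CPM on a log axis of Fasn, Acaca, Acly, Scd1, Srebf1 and Thrsp in each rat (points) against the dose in mg/kg/day, with group medians as bars and 1 column of panels per data set. Scd1 lies between 23.3 and 278 CPM at 1000 mkd in experiment A, and the day 29 female control rat with 1494 CPM stands above its group in the Fasn panel.

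At 1000 mkd in experiment A, the RNA of central enzymes of fatty acid synthesis was lower than in the controls. Of the 8 genes tested, 5 fell (Acly, Acaca, Fasn, Scd1 and Thrsp) and none rose. Among all 11323 genes tested 2424 were called, or 21.4%, and 7.45% were called lower. The median log2 difference was -1.17 over the 8 genes (-0.74 without control replicate 3) and 0.00 over all genes tested. Over the 10 hepatocyte markers it was -0.57 in the same comparison, with all control rats. The falls ranged from 2.08-fold for Acaca to 8.63-fold for Scd1.

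Scd1, the stearoyl-CoA desaturase, changed most. The control rats had 166, 288, 800.2, 833 and 2118 CPM, and the rats given 1000 mkd had 23.3, 40.4, 46.3, 99.3 and 278 CPM. Of the treated rats, 4 of 5 were below every control rat, and the fifth was below all but 1. The log2 difference was -3.11 ± 0.64 (SE, n = 5 per group, adjusted p = 0.0012). The call held whichever single rat was left out, with adjusted p of 0.00011 to 0.0049 in edgeR.

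Thrsp followed. Its levels were 156, 163, 694, 798 and 967 CPM in the controls and 49.4, 50.9, 59.4, 182 and 261 CPM at 1000 mkd. The treated group lay mostly below the control group, with 3 of 5 rats below every control and 2 within the control range. The log2 difference was -2.20 ± 0.59 (SE, n = 5 per group, adjusted p = 0.0072), and it stayed called without any 1 rat (adjusted p 0.0021 to 0.025).

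Fasn had 27.9, 55.2, 64.6, 178 and 308 CPM in the controls and 35.5, 36.4, 37.0, 47.2 and 56.1 CPM at 1000 mkd. The treated rats were close together and all lay inside the range of the controls, which was set by 2 high rats. The log2 difference was -1.58 ± 0.48 (SE, n = 5 per group, adjusted p = 0.016). Acly had 59.1, 79.1, 92.7, 267 and 334 CPM in the controls against 58.3, 59.4, 60.0, 76.0 and 85.6 CPM, and only 1 treated rat was below every control. Its log2 difference was -1.29 ± 0.37 (SE, n = 5 per group, adjusted p = 0.011). Acaca had 17.4, 27.1, 29.7, 80.9 and 111 CPM against 19.0, 24.1, 26.5, 27.8 and 30.6 CPM, with a log2 difference of -1.06 ± 0.39 (SE, n = 5 per group, adjusted p = 0.041). The same 2 control rats, replicates 1 and 3, had the highest values of all 3 enzymes.

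Without control replicate 3, Scd1 (log2 difference -3.13, adjusted p = 0.0027) and Thrsp (-2.04, adjusted p = 0.018) were still called. The other falls then missed the threshold in edgeR, with a log2 difference of -0.94 for Fasn (adjusted p = 0.10), -0.88 for Acly (adjusted p = 0.058) and -0.60 for Acaca (adjusted p = 0.21). Acaca was also lost without control replicate 1 or without any of 4 treated rats (replicates 2, 3, 5 and 6). None of the 8 genes had every treated rat below every control rat, a separation seen for 7.22% of all genes.

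The members that were not called at 1000 mkd were also lower on average. Srebf1 had 88.5, 112, 114, 159.8 and 179 CPM in the controls and 42.8, 65.0, 85.5, 98.0 and 114 CPM at 1000 mkd, and 3 of 5 treated rats were below every control (log2 difference -0.69 ± 0.30, SE, adjusted p = 0.082). Me1 ran from 29.4 to 55.9 CPM in the controls and from 22.3 to 33.0 CPM at 1000 mkd (log2 difference -0.53, adjusted p = 0.13). Acacb ran from 14.0 to 32.6 CPM and from 13.2 to 24.2 CPM (log2 difference -0.25, adjusted p = 0.54). The isoform tied to fatty acid oxidation thus had the smallest difference of the 8.

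At 30, 100 and 300 mkd, 0% of the 11323 genes were called in edgeR, the 8 members included. At an unadjusted p of at most 0.05, 0, 3 and 3 of the 8 passed at the 3 doses, and 324, 232 and 218 of all genes did. Scd1 remained in the control range at 300 mkd, with 395 to 1338 CPM.

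At 1000 mkd in males of experiment B on day 8, 0% of the 11304 genes were called, and at 300, 500 and 750 mkd 0% as well. Of the members, 1 of 8 passed an unadjusted p of 0.05 at 1000 mkd, and 0, 3 and 0 did at 300, 500 and 750 mkd. Of all genes, 531 passed it at 1000 mkd, and 159, 375 and 865 did at 300, 500 and 750 mkd. Scd1 had 116, 486, 519, 586 and 815 CPM in these controls and 122, 432, 1085, 1344 and 1744 CPM at 1000 mkd. It was thus higher in 3 of 5 treated rats than in any control rat (log2 difference 0.91 ± 0.71, SE, n = 5 per group, adjusted p = 0.97). The response of Scd1 to 1000 mkd differed between the experiments by -4.01 on the log2 scale (95% interval -6.07 to -1.95, adjusted p = 0.011 for the interaction in edgeR, 2.16% of all 11890 genes called lower). It missed the threshold without replicate 3 of every group (adjusted p = 0.11) and without replicate 5. The experiments used different stocks of Wistar rats, and stock and experiment cannot be told apart.

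At 1500 mkd on day 8, no member was called in males by edgeR, against 0.177% of all genes. An unadjusted p of 0.05 was passed by 5 of 8 members and by 1429 of all 11304 genes. DESeq2 called 3 members (Acly, Acaca and Srebf1), and its share of all genes was not taken. All 8 had a log2 difference below 0, with a median of -0.92 against 0.00 over all genes. Acly had 85.3, 90.6, 119.9, 126 and 162 CPM in the controls and 51.9, 52.1, 66.2, 69.4 and 78.5 CPM at 1500 mkd. Every treated rat was below every control rat for Acly (log2 difference -0.88 ± 0.24, SE, n = 5 per group, adjusted p = 0.085 in edgeR and 0.026 in DESeq2).

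The separation was complete for Acaca and Thrsp too. Acaca had 37.0, 39.5, 40.6, 42.7 and 62.7 CPM against 18.4, 21.8, 21.9, 22.5 and 30.0 CPM (log2 difference -0.96 ± 0.28, SE, adjusted p = 0.11 in edgeR and 0.042 in DESeq2). Thrsp had 186, 285, 308, 341 and 444 CPM against 52.8, 65.7, 97.9, 105 and 121 CPM (log2 difference -1.82 ± 0.63, SE, adjusted p = 0.19 in edgeR). Such a separation held for 3 of 8 members and for 1.1% of all genes at 1500 mkd, and for 0 of 8 and 0.292% at 1000 mkd.

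Srebf1 had 74.6, 82.8, 119, 130.5 and 273 CPM in these controls and 35.2, 39.6, 44.2, 47.7 and 93.2 CPM at 1500 mkd. All but 1 treated rat were below every control (log2 difference -1.39 ± 0.36, SE, n = 5 per group, adjusted p = 0.076 in edgeR and 0.015 in DESeq2). Fasn ran from 30.6 to 93.7 CPM in the controls and from 18.9 to 53.8 CPM at 1500 mkd (log2 difference -0.96, adjusted p = 0.28). Scd1 had a log2 difference of -0.68 (adjusted p = 0.73) with overlapping groups.

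In males on day 29, Acaca fell at 1000 mkd and was the only member called. Its levels were 27.9, 28.1, 28.4, 32.5 and 42.2 CPM in the controls and 14.7, 16.6, 20.6, 21.3 and 22.3 CPM at 1000 mkd, a 1.67-fold fall with no overlap (log2 difference -0.74 ± 0.21, SE, n = 5 per group, adjusted p = 0.041). Of all 11279 genes, 2.76% were called and 1.81% were called lower. The call was lost in 7 of the 10 fits without 1 rat, those without control replicate 2, 3 or 4 or treated replicate 2, 3, 4 or 5. No other member was separated, against 4.41% of all genes.

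At 1500 mkd on day 29 none of the 8 was called in males by edgeR, where 4.91% of all genes were. An unadjusted p of 0.05 was passed by 2 of 8 members and by 3050 of all 11279 genes. The 2 of 8 are thus a share near that of all genes. DESeq2 called 1 member, Srebf1, and its share of all genes was not taken. Srebf1 had 121, 141, 173, 177 and 303 CPM in the controls and 40.8, 70.9, 71.1, 108 and 128 CPM at 1500 mkd. Only the highest of the treated rats reached the control range (log2 difference -1.13 ± 0.40, SE, n = 5 per group, adjusted p = 0.075 in edgeR and 0.033 in DESeq2). Separation of the groups was seen for 0 of 8 members and 3.95% of all genes. Acaca had 16.0, 18.8, 19.5, 24.5 and 35.0 CPM at 1500 mkd, against 27.9 to 42.2 CPM in the controls. The rat with 35.0 CPM, replicate 3, was the only treated rat in the control range. By its animal number, it is the male that the study named an outlier in Ki67 labeling and left out of its benchmark dose modeling. Without treated replicate 3, 1 member was called lower by edgeR, Acaca (log2 difference -0.75, adjusted p = 0.023).

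At the low end of the range the male day 29 members ran the other way without passing the test. At 300 mkd all 8 log2 differences were above 0, and 3 of 8 passed an unadjusted p of 0.05 in edgeR, as did 638 of all 11279 genes. Fasn had 38.9, 45.4, 49.3, 84.0 and 94.7 CPM in the controls and 83.2, 89.4, 117, 135 and 148 CPM at 300 mkd. The groups overlapped only between the 2 highest controls and the 2 lowest treated rats (log2 difference 0.87 ± 0.34, SE, n = 5 per group, adjusted p = 0.86). Of all genes, 0% were called at 300 mkd and likewise 0% at 500 mkd, and 0.78% were called at 750 mkd, with no member called at these doses. An unadjusted p of 0.05 was passed at 500 and 750 mkd by 0 and 1 of 8 members. Of all genes, 1542 and 2582 passed it, a larger share than that of the members.

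In females on day 8 no member was called at any dose by edgeR. The share of all 11497 genes called was 0.0087%, 0.0174% and 0.0174% at the 3 lower doses (300, 500 and 750 mkd), then 1.37% at 1000 mkd and 0.705% at 1500 mkd. At an unadjusted p of 0.05, 0, 4, 5, 4 and 1 of the 8 members passed at these doses. Of all genes, 295, 741, 1609, 1553 and 1688 passed, so the 1 of 8 at 1500 mkd is near the share of all genes. DESeq2 called 0 members at 1500 mkd. Thrsp had the lowest values relative to the control. It had 666, 814, 846, 1547 and 1696 CPM in the control females and 96.1, 105, 119, 248 and 458 CPM at 750 mkd. Every rat given 750 mkd was below every control rat (log2 difference -2.44 ± 0.67, SE, n = 5 per group, adjusted p = 0.088). The share of all genes separated in this way was not taken at 750 mkd, so this separation has no background to be judged against. At 1000 mkd Thrsp ran from 112 to 622 CPM, again with no overlap (log2 difference -1.84, adjusted p = 0.19), a separation seen in 1.47% of all genes. Thrsp was called lower at 1500 mkd without treated replicate 1 (log2 difference -2.34, adjusted p = 0.045). At 1500 mkd 1 rat reached 995 CPM and the groups overlapped (log2 difference -1.57, adjusted p = 0.24), as they did for every other member against 1.06% of all genes separated.

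In females on day 29, members were called lower at the 2 highest doses. At 1000 mkd 3 of 8 were called lower (Acly, Acaca and Fasn), where 1.59% of all 11451 genes were called and 0.358% called lower. At 1500 mkd 5 of 8 were called lower (Acly, Acaca, Fasn, Scd1 and Srebf1), where 13.1% of all genes were called and 3.54% called lower. None of the 8 was called higher. The median log2 difference of the 8 was -1.59 at 1000 mkd and -1.35 at 1500 mkd, against -0.01 and 0.00 over all genes. These medians were -0.92 and -0.55 without control replicate 3. Over the 10 hepatocyte markers the median was -0.39 at 1500 mkd with all control rats.

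Scd1 had the largest difference of the 8 at 1500 mkd. The control females had 136, 416, 443, 904 and 1511 CPM, the females given 1000 mkd had 24.8, 65.2, 90.6, 117 and 217 CPM, and those given 1500 mkd had 15.4, 56.4, 58.2, 96.7 and 139.9 CPM. At both doses 4 of 5 treated rats were below every control rat. The log2 difference was -2.73 ± 0.75 (SE, adjusted p = 0.054) at 1000 mkd and -3.22 ± 0.77 (SE, n = 5 per group, adjusted p = 0.0048) at 1500 mkd, a 9.30-fold fall. The call at 1500 mkd held without any 1 rat, with adjusted p of 0.0030 to 0.019.

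Fasn had 54.7, 87.3, 90.3, 193 and 1494 CPM in the controls, 36.2, 47.6, 54.5, 55.4 and 94.4 CPM at 1000 mkd and 59.2, 65.6, 83.4, 90.3 and 192 CPM at 1500 mkd. The groups overlapped at 1500 mkd, and the control mean was set by 1 rat. The log2 difference was -2.74 ± 0.68 (SE, adjusted p = 0.035) at 1000 mkd and -1.97 ± 0.66 (SE, n = 5 per group, adjusted p = 0.036) at 1500 mkd. Without control replicate 3 it was -0.88 at 1000 mkd and -0.12 (adjusted p = 0.88) at 1500 mkd, and the fall was not called at either dose.

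Acly showed the same dependence. The controls had 109, 116, 121, 150.3 and 1049.8 CPM, against 64.7, 72.8, 75.8, 81.4 and 108 CPM at 1000 mkd and 72.7, 80.4, 86.7, 87.9 and 179.5 CPM at 1500 mkd. All 5 rats at 1000 mkd and 4 of 5 at 1500 mkd were below every control rat. The log2 difference was -1.94 ± 0.49 (SE, adjusted p = 0.035) and -1.61 ± 0.48 (SE, n = 5 per group, adjusted p = 0.020). Without control replicate 3 it was -0.63 at 1000 mkd and -0.29 (adjusted p = 0.50) at 1500 mkd.

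Acaca and Srebf1 had no overlap between control and treated rats at either dose. Acaca had 32.5, 34.0, 34.6, 40.8 and 65.5 CPM in the controls, 15.2, 15.6, 17.9, 20.0 and 22.8 CPM at 1000 mkd and 15.7, 20.3, 21.2, 23.6 and 32.3 CPM at 1500 mkd. Srebf1 had 116, 146, 174, 181 and 305 CPM in the controls, 45.4, 70.5, 80.8, 87.8 and 89.2 CPM at 1000 mkd and 54.0, 79.7, 94.5, 98.8 and 107 CPM at 1500 mkd. The log2 difference of Acaca was -1.18 ± 0.26 (SE, adjusted p = 0.025) and -0.87 ± 0.26 (SE, n = 5 per group, adjusted p = 0.018), and that of Srebf1 was -1.30 ± 0.36 (SE, adjusted p = 0.056) and -1.09 ± 0.36 (SE, n = 5 per group, adjusted p = 0.034). Separation held for 3 of 8 members at 1000 mkd, Acly included, against 1.76% of all genes, and for 2 of 8 at 1500 mkd against 2.62%. Without control replicate 3, Acaca kept its call at 1000 mkd (log2 difference -0.96, adjusted p = 0.034) and missed it at 1500 mkd (-0.65, adjusted p = 0.064), as did Srebf1 (-0.83, adjusted p = 0.10).

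How many members were called in the day 29 females therefore varied with single rats. At 1500 mkd 1 of 8 was called without control replicate 3 or treated replicate 2, 2 without treated replicate 1, 3 without treated replicate 3 and 6 without treated replicate 5. At 1000 mkd none was called without control replicate 1 or treated replicate 4, 1 without control replicate 3 or treated replicate 1, 2, 3 or 5, 2 without control replicate 5, and 5 without control replicate 2. Thrsp had 499.7, 604, 1036, 1377 and 1965 CPM in the controls and 108, 111, 129, 308 and 812 CPM at 1500 mkd, with 4 of 5 treated rats below every control (log2 difference -1.90 ± 0.73, SE, adjusted p = 0.065). Me1 (log2 difference -0.41, adjusted p = 0.26) and Acacb (0.05, adjusted p = 0.93) were not called.

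At 1500 mkd on day 29 in females, 2 of 10 hepatocyte markers fell and 1 rose, with a summed level of 102711 to 208707 CPM against 208684 to 399911 CPM in the controls. Also, 4 of 10 macrophage markers, 2 of 6 tested T and NK cell markers, 2 of 6 endothelial markers, 1 of 7 tested stellate cell markers, 1 of 4 cholangiocyte markers and 10 of 10 cell cycle genes rose there, and 3 of 3 tested erythroid markers fell. Of all genes tested, 3.54% fell and 9.55% rose in this comparison, so the 1 of 7 stellate cell markers is a share near that of all genes. The summed level of the macrophage markers was 1002 to 1260 CPM in the controls and 1211 to 2206 CPM at 1500 mkd, and that of the endothelial markers 91.2 to 304 CPM and 211 to 326 CPM. Their part in the fall of the members was not tested. At 300, 500 and 750 mkd, 0%, 0.0349% and 0.183% of all genes were called and none of the 8 members. An unadjusted p of 0.05 in edgeR was passed there by 0, 0 and 4 members and by 400, 1301 and 1787 of all genes.

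**Figure D2:**
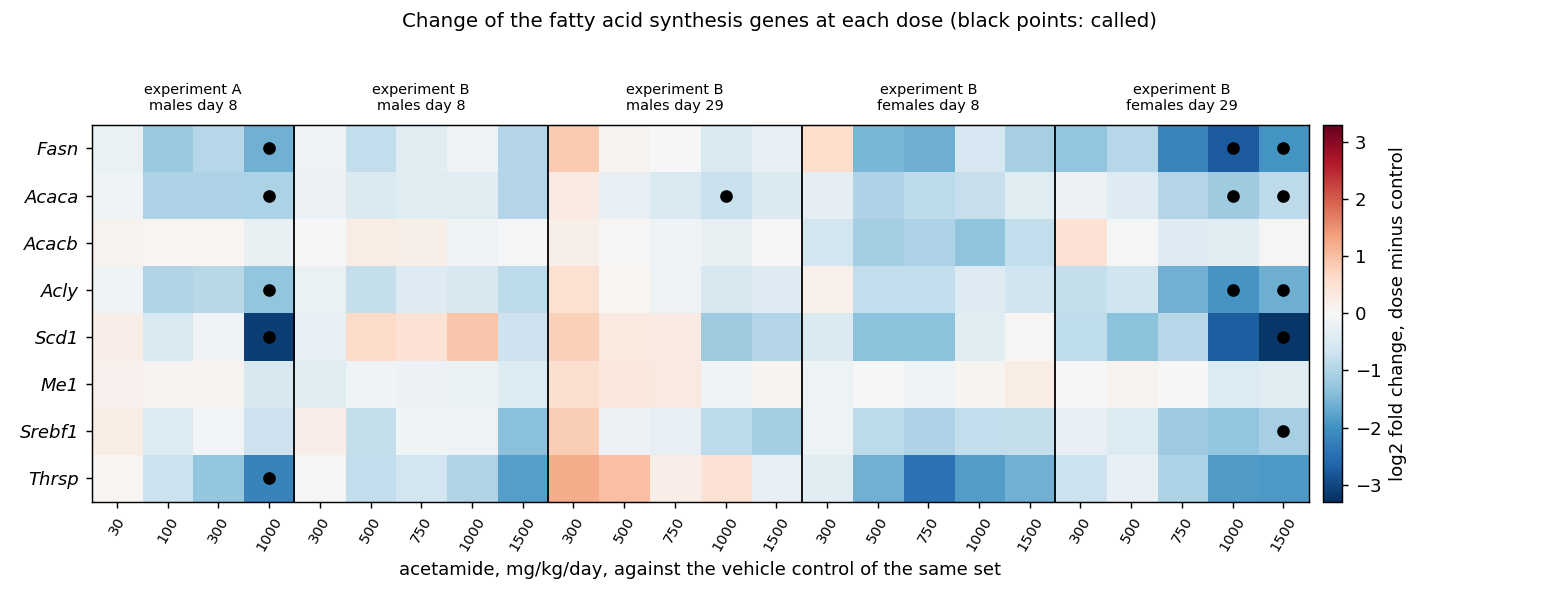
Log2 fold change of each tested gene (vertical axis) at each dose in mg/kg/day (horizontal axis) against the vehicle control of the same data set, as colour, with black points where a gene was called. Points stand at 1000 mkd in experiment A (5 genes), at 1000 mkd in day 29 males (1 gene) and at 1000 and 1500 mkd in day 29 females (3 and 5 genes).

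A trend over all doses used every rat of a data set and asked whether a gene's level changed per 1000 mkd, with no fold criterion. In experiment A, 6 of 8 members fell with dose (all but Acaca and Acacb), where 22.4% of all genes did. Scd1 fell by 3.17 ± 0.64 (SE) on the log2 scale per 1000 mkd (adjusted p = 0.00029) and Thrsp fell by 2.16 ± 0.51 (SE, adjusted p = 0.0013). Without replicate 3 of every group 2 of the 8 had a slope past the threshold. With the rank of dose in place of the dose, 4 of the 8 fell: Scd1 (adjusted p = 0.052), Me1 (0.22) and Srebf1 (0.079) missed the threshold and Acaca passed it (adjusted p = 0.013).

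In day 29 females 6 of 8 fell with dose (all but Acacb and Me1), where 11.9% of all genes did. The slope per 1000 mkd was -2.13 ± 0.45 (SE, adjusted p = 0.00074) for Scd1, -1.36 ± 0.37 (SE, adjusted p = 0.0073) for Fasn and -0.70 ± 0.16 (SE, adjusted p = 0.0015) for Acaca. Without replicate 3 of every group 4 of the 8 fell, and the slopes of Fasn (-0.65, adjusted p = 0.20) and Acly (-0.65, adjusted p = 0.062) missed the threshold. In day 29 males 3 of 8 fell (Acly, Acaca and Srebf1), where 10.6% of all genes did. Srebf1 had the steepest of these slopes, -1.14 ± 0.27 (SE, adjusted p = 0.0047), and Acly (-0.53) and Acaca (-0.51) were less steep. Without replicate 2 of every group 1 of the 8 was called there, and without replicate 5 there were 5.

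On day 8 in experiment B the trend called none of the 8 in either sex by edgeR. In males 0.54% of all genes fell with dose by edgeR. An unadjusted p of 0.05 was passed by 4 of 8 members and by 2028 of all genes. DESeq2 called those 4 members (Acly, Acaca, Srebf1 and Thrsp), and its share of all genes was not taken. Thrsp had a slope of -1.21 ± 0.36 (SE, adjusted p = 0.064) in males and -1.14 ± 0.37 (SE, adjusted p = 0.068) in females. In females 1.69% of all genes fell with dose, and DESeq2 called 0 members. An unadjusted p of 0.05 was passed by 3 of 8 members and by 2387 of all genes. Members called by edgeR numbered 2 in males without replicate 3 or replicate 5 of every group and 1 in females without replicate 1.

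**Figure D3:**
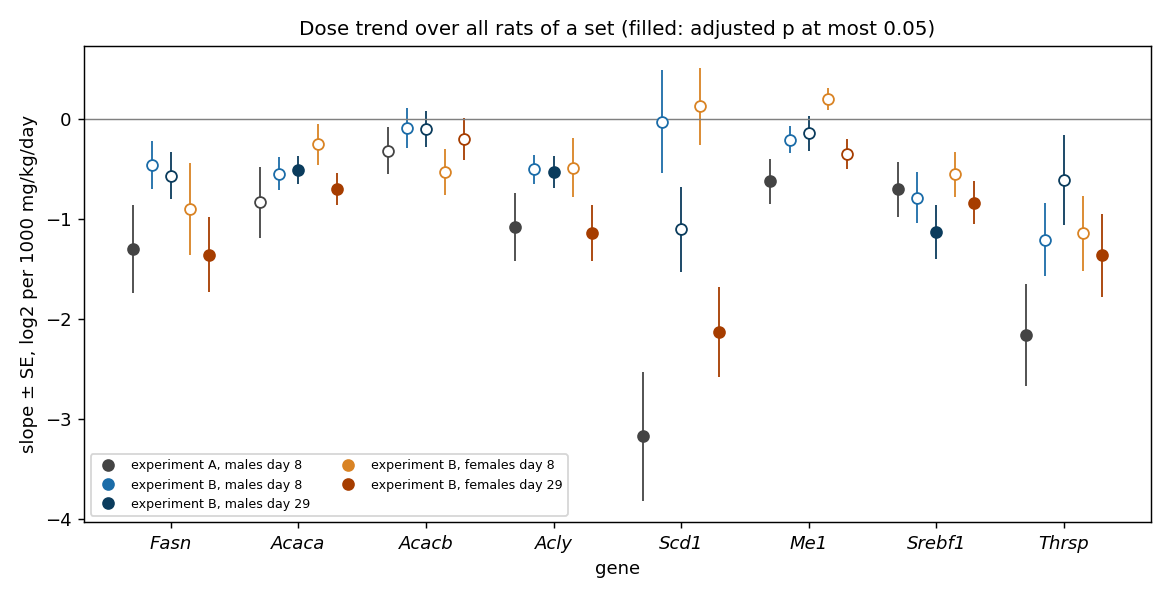
Slope of each tested gene over all doses of a data set, in log2 units per 1000 mg/kg/day, with its SE as the bar. Filled points had an adjusted p of at most 0.05: 6 genes in experiment A, 3 in day 29 males, 6 in day 29 females and 0 on day 8 in experiment B.

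The vehicle rats alone showed how far the members differ between the sexes. On day 8 Fasn was 4.17-fold higher in control females than in control males (log2 difference 2.06 ± 0.59, SE, adjusted p = 0.010) and Acacb 2.15-fold higher (adjusted p = 0.031), where 3.93% of all 11890 genes were called higher. The control males had 30.6, 36.3, 45.7, 82.0 and 93.7 CPM of Fasn and the control females 82.1, 83.5, 197, 266 and 719.9 CPM, so only 1 male lay above the lowest females. On day 29 Fasn (log2 difference 2.50 ± 0.60, SE, adjusted p = 0.0011), Acly (2.83-fold, adjusted p = 0.0050) and Thrsp (2.38 ± 0.71, SE, adjusted p = 0.010) were called higher in females, where 6.69% of all genes were. Without replicate 3 of every group none of the 8 was called on either day, and the day 29 difference of Fasn was 0.55, that of Acly 0.13 and that of Thrsp 1.83. Acacb on day 8 was lost without replicate 4 or replicate 5 of every group too.

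Thrsp was the clearest of these by rat on day 29. The control males had 40.9, 131, 186, 254 and 365 CPM, all below the lowest control female at 499.7 CPM. The share of all genes separated between the sexes was not taken, and 12% of all genes were called between them in either direction. These CPM were scaled within each data set. Scd1 was not called between the sexes, with a log2 difference of -0.74 (adjusted p = 0.60) on day 8 and -0.44 (adjusted p = 0.72) on day 29.

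Time-point and experiment made no called difference in the vehicle rats. Between day 29 and day 8, none of the 8 was called in males (0.00841% of all genes, 1 of 8 at an unadjusted p of 0.05) or females (1.1% of all genes, 2 of 8 at an unadjusted p of 0.05) by edgeR, and DESeq2 called 0. Of all 11890 genes, 1182 passed that p in males and 2308 in females, so these counts are near the share of all genes. Between the experiments none of the 8 was called in day 8 control males by either tool, where 1.61% of all genes were called by edgeR. An unadjusted p of 0.05 was passed by 1 of 8, Fasn, and by 2031 of all genes.

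**Figure D4:**
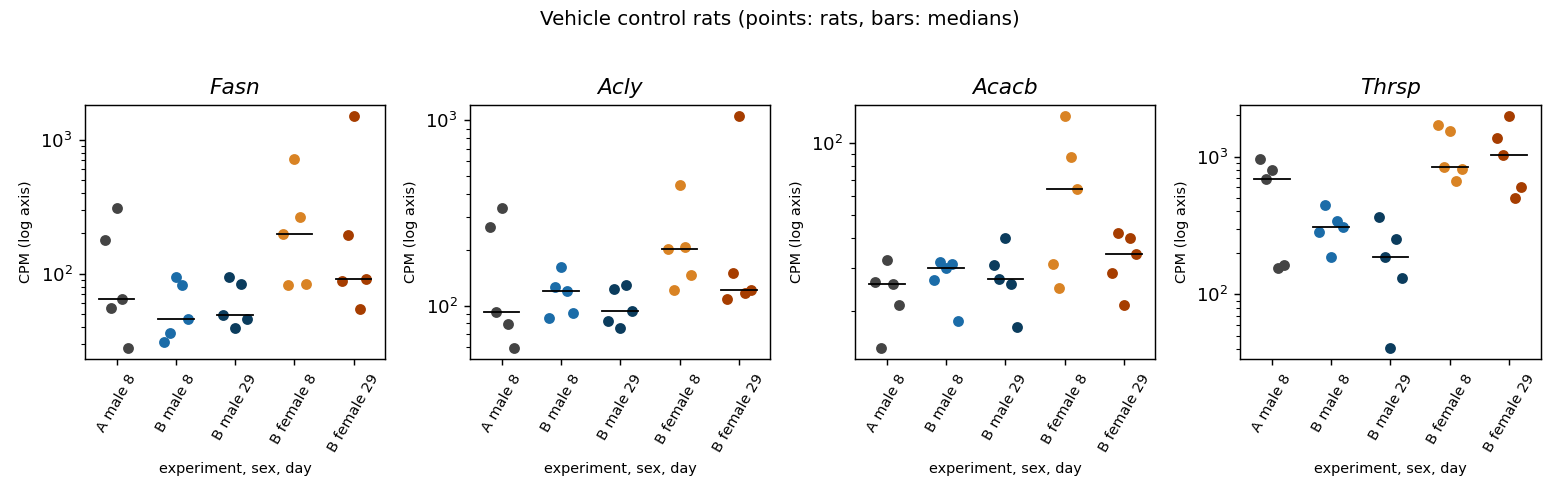
CPM on a log axis of Fasn, Acly, Acacb and Thrsp in the vehicle control rats (points) of the 5 data sets, with medians as bars. Thrsp in day 29 control females (499.7 to 1965 CPM) lies above day 29 control males (40.9 to 365 CPM), and 1 day 29 control female stands apart in Fasn and Acly.

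No member's response to 1500 mkd was shown to differ by sex or by time. The response of females minus that of males was called for 0 of 8 members on day 8 (0% of all genes, 0 of 8 at an unadjusted p of 0.05) and on day 29 (0.555% of all genes, 3 of 8 at an unadjusted p of 0.05) by edgeR, and DESeq2 called 0. Of all 11890 genes, 485 passed that p on day 8 and 2023 on day 29. The response on day 29 minus that on day 8 was called for none in males (0% of all genes, 0 of 8 at an unadjusted p of 0.05) or females (0.0168% of all genes, 1 of 8 at an unadjusted p of 0.05), and DESeq2 called 0. Here 545 of all genes passed that p in males and 918 in females. The widest of these differences was that of Scd1 in females, where the response on day 29 minus that on day 8 was -3.27 on the log2 scale (95% interval -5.31 to -1.24, adjusted p = 0.49). The female response of Fasn on day 29 minus the male response was -1.67 (95% interval -3.26 to -0.08, adjusted p = 0.27). Without the control female with 1494 CPM it was 0.19 (adjusted p = 0.93), and the difference of Scd1 between day 29 and day 8 in females was -3.14 (adjusted p = 0.38).

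Genes around the pathway were taken from lists by function. Of 15 genes for acetyl-CoA and NADPH supply, 4 fell and 2 rose at 1000 mkd in experiment A, and 4 fell and 2 rose at 1500 mkd in day 29 females. Of all genes, 7.45% fell and 14% rose in the first comparison, and 3.54% fell and 9.55% rose in the second, so the 2 of 15 that rose are a share near that of all genes. The median log2 difference was -0.36 and -0.41, against 0.00 over all genes in both. Pklr, the liver pyruvate kinase, fell from 176 ± 124 to 69.1 ± 34.5 CPM (SD, n = 5, adjusted p = 0.014) in experiment A and from 341 ± 341 to 97.5 ± 41.6 CPM (SD, n = 5, adjusted p = 0.0051) in females. Me3, a mitochondrial malic enzyme, fell by 1.53 and 0.99 on the log2 scale, while Me2, another mitochondrial malic enzyme, rose by 1.25 and 1.06. The fall of Pklr in experiment A missed the threshold without control replicate 1 (adjusted p = 0.056), and that of Me3 in females without control replicate 5 or treated replicate 2 (adjusted p up to 0.062). The log2 difference of Pklr in females was -1.81, and -0.96 (adjusted p = 0.043) without control replicate 3.

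Of 12 tested genes of elongation and desaturation, 3 fell and 2 rose in experiment A, where 7.45% and 14% of all genes did. Fads2 and Fads1, the desaturases of polyunsaturated fatty acids, fell by 1.57 (adjusted p = 0.0055) and 1.44 (adjusted p = 0.013) on the log2 scale, and Fads3 rose by 1.09 (adjusted p = 0.0066). In day 29 females 3 of them rose, where 9.55% of all genes did, among them Scd2, a desaturase close in sequence to Scd1, by 0.76 (adjusted p = 0.034). That rise was lost in 7 of the 10 fits without 1 rat, those without control replicate 1, 4 or 5 or treated replicate 1, 2, 3 or 4 (adjusted p up to 0.11). Reads shared by Scd1 and Scd2 would be uncertain between them. The median log2 difference of the list was -0.34 and -0.19.

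Of 23 tested regulators of lipogenesis, 3 fell and 1 rose in experiment A (median log2 difference -0.31), and 1 rose in day 29 females (median -0.25). Of all genes, 7.45% fell and 14% rose in the first comparison and 9.55% rose in the second. Insig1, which holds SREBP in the endoplasmic reticulum, fell by 1.38 on the log2 scale (adjusted p = 0.029) in experiment A and Srebf2, the SREBP of cholesterol synthesis, by 0.74 (adjusted p = 0.024). Without control replicate 3 of experiment A, 1 of these 3 falls was left and Srebf2 missed the threshold (adjusted p = 0.069), as it did without control replicate 1 or treated replicate 3, 5 or 6. Insig1 missed it without control replicate 4 or treated replicate 3 or 6 (adjusted p up to 0.13). Prkaa1, a catalytic subunit of the AMP-activated kinase, rose by 0.75 in both. In day 29 males, Rxra, the partner of several lipid-sensing receptors, and Insr, the insulin receptor, were the 2 regulators that fell at 1500 mkd, and 1 gene of elongation and desaturation, Elovl2, fell, while Taldo1 of the NADPH supply list rose. Of all genes, 1.76% fell and 3.16% rose there. Rxra stayed called without any 1 rat. Insr was lost without control replicate 1, 2, 3 or 4 or treated replicate 1, 2 or 4, Elovl2 without control replicate 3 or treated replicate 1 or 2, and Taldo1 was under 1.5-fold without treated replicate 3.

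In glycerolipid synthesis 3 of 14 tested genes fell and 1 rose in experiment A, where 7.45% and 14% of all genes did, and 2 of 15 fell in day 29 females, where 3.54% of all genes did. Acsl1, which activates fatty acids, fell from 2187 ± 268 to 827 ± 400 CPM (SD, n = 5, adjusted p = 0.00057) in experiment A, and Dgat2, which completes triglycerides, fell from 1084 ± 89.9 to 675 ± 107 CPM (SD, n = 5, adjusted p = 0.0018) in females. For Acsl1 and Dgat2 every treated rat was below every control rat in these comparisons.

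Among 15 tested genes that are known to rise on fasting, 4 fell and none rose in experiment A, where 7.45% and 14% of all genes did, among them Cpt1a, the carnitine palmitoyltransferase, down by 0.92 (adjusted p = 0.0067) on the log2 scale. In day 29 females 1 of the 15, where 9.55% of all genes rose, was called higher. This gene, Ppargc1a, rose by 1.10 (adjusted p = 0.047), a call lost without control replicate 2, 3, 4 or 5 or treated replicate 2 or 3 (adjusted p up to 0.24). None of 13 circadian clock genes was called in either comparison by edgeR. At 1500 mkd in day 8 males and day 8 females, no gene of these 6 lists was called in edgeR, and DESeq2 called 1 lower in each.

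Rats within a dose group differed more in these genes than in most others. The SD of log2 CPM within groups, pooled over 29 groups, was 1.20 for Scd1, 1.11 for Thrsp, 0.90 for Fasn, 0.62 for Srebf1, 0.61 for Acly, 0.58 for Acacb, 0.49 for Acaca and 0.41 for Me1. The median over 9799 genes was 0.28. Scd1 stood at the 99.5th percentile of those genes, Thrsp at the 99.4th and Fasn at the 98.5th.

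Within groups the members did not all vary together. Over all rats of the 5 data sets, as deviations from the group mean, Fasn and Acly had Pearson's r = 0.90 (Spearman's rho 0.84), and r ran from 0.78 to 0.96 by data set. Fasn and Acaca had r = 0.73, and Fasn and Srebf1 r = 0.65. Scd1 had r = 0.34 to Fasn (-0.17 to 0.52 by data set) and 0.46 to Me1 (0.06 to 0.64 by data set). Acacb and Me1 were less tied to Fasn than Scd1 was, with r = 0.23 and 0.09, and Thrsp and Me1 had r = -0.26. These values describe rats that share group means and library scaling, and the 28 pairs ran from -0.26 to 0.90 with a median of 0.27. Leaving out the day 29 control female replicate 3 moved Fasn and Acly to 0.89.

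The rat with the highest mean deviation over the 8 genes was the day 8 female replicate 2 given 300 mkd. It was above its group mean in all 8 genes, by 3.21 on the log2 scale in Fasn and 2.42 in Acly. Control replicate 3 of the day 29 females was above its group mean in 6 of 8, by 3.17 in Fasn and 2.47 in Acly, and below it in Acacb (-0.61) and Me1 (-0.16). The control female replicate 3 of day 8 was above in all 8.

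Genes outside the set that varied most like the mean of the members were found by the same correlation over all rats, among 9791 genes with a mean of at least 1 CPM. The highest values included those of Pklr, which came first (r = 0.76), Mid1ip1, a protein related to Thrsp (0.72), Tkfc (0.71), Acss2, the cytosolic acetyl-CoA synthetase (0.68), and Srebf2 (0.66). Acat2 (0.66), Hcn3 (0.65) and Msmo1 (0.64) were also among the first 10.

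**Figure D5:**
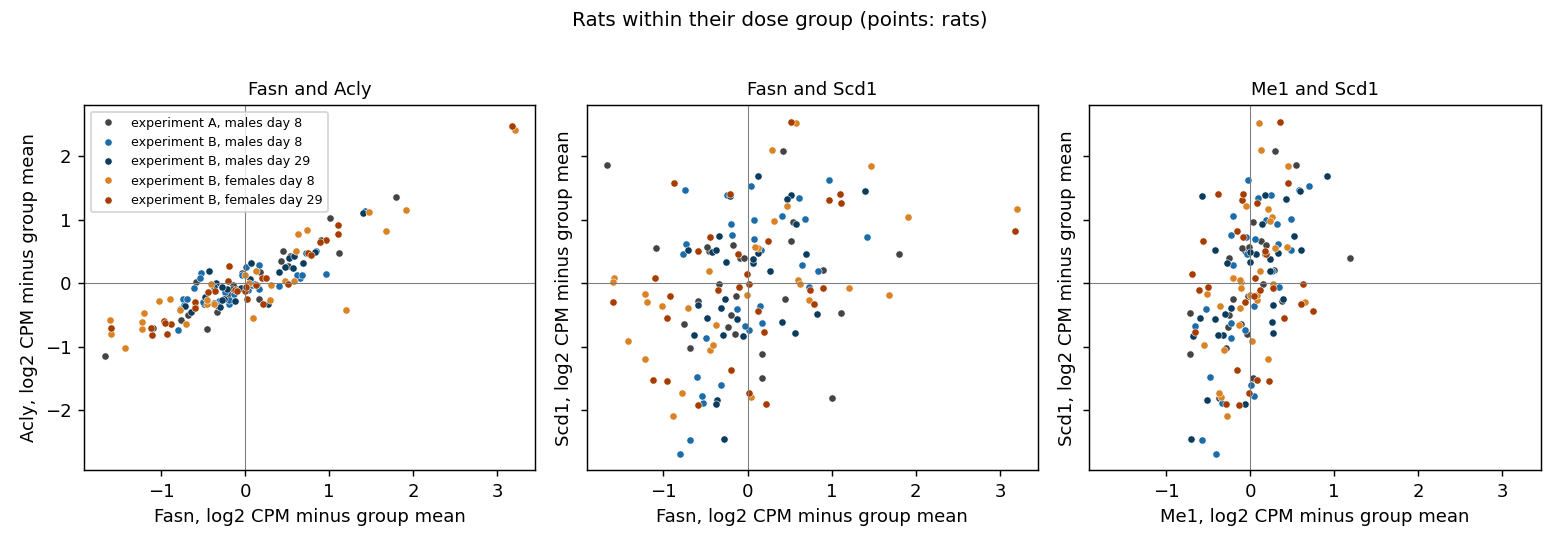
Deviation of every rat (points) from its group mean in log2 CPM, for pairs of members (axes named in each panel). Fasn and Acly lie along a line (r = 0.90), while Fasn and Scd1 scatter widely (r = 0.34).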

How the data were processed

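Livers were measured by RNA-seq in 5 data sets. Libraries were made with a stranded mRNA kit and read as 75 bp single ends. The authors trimmed reads with Trimmomatic, aligned them to Rn6 by Bowtie2 and assigned them to genes by HTSeq. The tool versions are not given in the sources used here. They deposited raw counts per gene, whole numbers with no normalization or filter. In experiment B the tables also hold HTSeq summary lines, 35.5 to 67.1% of the counts of a rat, which entered neither library sizes nor tests. The per-sample columns left out for want of a label number 0.

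Groups follow the sample labels. The day 29 control males carry another experiment label and were placed in experiment B by their title and stock. Rats are separate animals.

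From the counts, differential expression was tested with edgeR 4.0.16 (R 4.3.3), by TMM, its filter on low counts and the quasi-likelihood F-test, with all groups of a data set in 1 fit. Sex, day and experiment were compared in 1 fit of all 29 groups. The trend used dose as a number, per 1000 mkd. CPM are TMM-scaled, with a prior count of 2 on the log2 scale. Adjusted p are Benjamini-Hochberg values over all genes tested in a comparison, from edgeR unless DESeq2 1.42.0 is named. Shares of all genes called are from edgeR, and none was taken from DESeq2, so DESeq2 counts of members have no such share beside them. The procedure was tested on simulated counts with the same dispersion for every gene and no outlying rats. Most members spread more between rats than most genes, so the simulation does not show how the test performs for them. Alternatives were DESeq2, DESeq2's size factors, genes without a filter or with at least 10 counts in each rat, control and highest dose only, the replicate number as a block, the rank of dose, and dropping single rats or replicate numbers.

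The members and the lists of genes were chosen with earlier results of these data known. All tested members are described. From each list, up to 2 called genes a direction with the largest changes and a mean of at least 1 CPM are named. Genes most like the members were ranked by Pearson's r of within-group deviations. Intervals are 95%.

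Some genes of the lists are not reported here by name.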

Additional observations from a re-analysis of the deposited data

Results flagged for a closer look

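In 29 of 232 groups of 5 rats, 12.5%, a member's highest or lowest rat lay apart from the rest by Dixon's criterion, where chance flags about 1 in 20 groups of normally distributed values. In 28 of the 29 the rat was high. CPM are skewed to high values and the members share their rats, so the share is not read as an excess over chance. Fasn, Acly and Acaca were often high in the same rat. In the day 29 female controls replicate 3 had 1494 CPM of Fasn, 1049.8 of Acly and 65.5 of Acaca. In the day 8 females given 300 mkd, replicate 2 had 1473 CPM of Fasn, 847 of Acly and 129 of Acaca. In the day 8 female controls replicate 3 had 719.9 CPM of Fasn and 449 of Acly. In day 29 females given 1500 mkd, replicate 5 had 192 CPM of Fasn, 179.5 of Acly and 812 of Thrsp, and in day 29 males given 500 mkd replicate 5 had 153 CPM of Fasn and 207 of Acly.

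Among day 8 males, control replicate 4 had 62.7 CPM of Acaca and 273 of Srebf1, replicate 2 at 300 mkd had 88.5 CPM of Acaca, replicate 3 at 500 mkd had 80.1 of Acly, replicate 3 at 750 mkd had 222 of Srebf1, and replicate 3 at 1500 mkd had 53.8 of Fasn and 93.2 of Srebf1. Among day 8 females, replicate 2 had 70.9 CPM of Acacb at 750 mkd and 725 of Scd1 at 1000 mkd, replicate 5 had 78.4 of Acaca at 1000 mkd, and replicate 5 had 1117 of Scd1 at 1500 mkd. Among day 29 females, replicate 2 had 823 CPM of Scd1 at 300 mkd, replicate 1 had 296 of Srebf1 at 500 mkd, and replicate 1 had 1174 of Scd1 at 750 mkd. In experiment A replicate 4 at 100 mkd had 85.1 CPM of Me1. The 1 low rat was replicate 5 of the day 29 males at 300 mkd, with 22.8 CPM of Acaca.

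The response of Scd1 to 1000 mkd on day 8 differed between the experiments by -4.01 on the log2 scale, by the interaction in edgeR (adjusted p = 0.011). It was -3.11 in experiment A, with 4 of 5 rats below every control, and 0.91 in experiment B. The difference missed the threshold without replicate 3 or replicate 5 of every group, and stock and experiment cannot be told apart.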

How the results depend on the processing

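Of 232 values of the 56 counts and comparisons under alternatives that leave out no rat, 216 stayed within 1.5 times the reported value, 16 moved and 0 reversed. Members called lower at 1000 mkd in experiment A numbered 2 with only control and highest dose in the fit. At 1500 mkd they numbered 3 by DESeq2 and 1 with those 2 groups alone in day 8 males, 1 by DESeq2 in day 29 males, and 2 with those groups alone in day 29 females, and at 1000 mkd in day 29 females 5 by DESeq2. For the trend they numbered 4 by DESeq2 in day 8 males, 5 by DESeq2 and 5 by the rank of dose in day 29 males, and 1 by the rank of dose in day 8 females. Genes lower in the lists of the pathway numbered 1, 6 and 1 by DESeq2 in day 8 males, day 29 males and day 8 females. With the replicate number as a block, members called lower numbered 2 at 1000 mkd and 3 for the trend in experiment A and 3 at 1500 mkd in day 29 females. At 1000 mkd in day 29 females they numbered 2 under the block, where Fasn (adjusted p = 0.078) and Acly (adjusted p = 0.074) missed the threshold. Over 24 same-numbered pairs of control and highest-dose rats, r of their deviations ran from -0.29 to 0.39 and was over 0.1 in 14, and 13 correlated best with their own number. Each control rat had 5 candidates at the highest dose, so 13 of 24 is more than an even spread of best matches would give. In no data set was every pair over 0.1, a bar set by choice, and no label ties numbers to a litter or day. Whether the numbers pair the rats is thus unsettled, and the block was kept as an alternative. Alternatives at 1000 mkd on day 29, the medians and the responses without control replicate 3 were chosen after seeing the data.

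Leaving out 1 rat, members called lower ranged from 2 to 5 at 1000 mkd in experiment A, 0 to 1 in day 29 males and 0 to 5 in day 29 females, and at 1500 mkd from 1 to 6 in day 29 females, 0 to 1 in day 29 males and 0 to 1 in day 8 females. Without 1 replicate number the trend ranged from 2 to 7 in experiment A, 0 to 2 and 1 to 5 in males on day 8 and day 29, and 0 to 1 and 4 to 7 in females. Members higher in control females ranged from 0 to 2 on day 8 and 0 to 3 on day 29, and the difference between experiments from 0 to 1. List genes lower ranged from 9 to 22 in experiment A, 0 to 1 and 1 to 8 in males and 0 to 1 and 4 to 11 in females, and list genes higher from 6 to 7, 0 to 1 in day 29 males, and 0 to 2 and 2 to 7 in females.

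Of 1520 values of single genes 1319 kept side and direction, 141 were weaker, 30 stronger and 30 reversed, all reversals in genes that were not called. Acacb at 1500 mkd in day 29 males was 0.01 in edgeR, and -0.030 by DESeq2, -0.025 with its size factors, -0.063 without a filter, -0.015 with at least 10 counts, -0.036 with control and highest dose only and -0.015 under the block. The trend of Scd1 in day 8 males was 0.16 by the rank of dose. Without 1 rat or replicate, Acacb at 1500 mkd ranged from -0.18 to 0.18 in day 29 females, -0.21 to 0.12 in day 29 males and -0.25 to 0.043 in day 8 males (trend -0.23 to 0.010), Me1 from -0.062 to 0.22 and Thrsp from -0.67 to 0.014 in day 29 males, Scd1 from -1.10 to 0.36 in day 8 females (trend -0.59 to 0.39), and the Scd1 trend in day 8 males from -0.10 to 0.049. The causes were not tested. Without control replicate 3 of the day 29 females, the Fasn response at 1500 mkd was 0.19 for females minus males and 0.99 for day 29 minus day 8. Elovl6, at most 2 counts, could not be measured, and whether the gene model used for counting misses it was not tested.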
